A study of Homo sapiens with 15 samples.

Results

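The 10 genes TNC, VCAM1, KYNU, FSCN1, NEDD9, MAN1A1, ANGPTL4, PTGS2, IL13RA2 and L1CAM belong to expression signatures or mechanisms of lung and brain metastasis of breast cancer, and their promoter and enhancer marks were read in a breast cancer cell line and its metastatic sub-populations. An H3K4me3 peak was taken for a gene when it lay within 2 kb of any annotated transcript start of that gene. An H3K27ac peak was taken when it lay within 100 kb and its nearest protein-coding start belonged to the gene. These rules gave 10 of 22572 H3K4me3 peaks, 1 for each gene, and 69 of 62195 H3K27ac peaks. NEDD9 had 29 of the H3K27ac peaks, TNC had 13, KYNU 9, VCAM1 8, ANGPTL4 and PTGS2 3 each, L1CAM 2, FSCN1 and MAN1A1 1 each, and IL13RA2 had 0.

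The cells were MDA-MB-231, a triple-negative human breast cancer line (Par), and 2 sub-populations of it obtained by selection in mice: LM2, which metastasizes to lung, and BrM2, which metastasizes to brain. All were grown in culture in DMEM with 10% FBS for 3 days before fixation, so no library came from a metastasis in an animal. Each line had 2 biological replicates for each mark, giving 12 ChIP-seq libraries, and each line stands for 1 selected population.

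H3K4me3 is laid down around the starts of genes that are transcribed or poised, and H3K27ac is found at active promoters and enhancers. A gain or loss of either mark reads the state of the chromatin and not the amount of RNA or protein. Genes of the lung and brain signatures act at different steps of spread: some reshape the cytoskeleton for invasion, some let cells adhere to matrix, endothelium or capillaries, and some are enzymes or secreted factors that alter vessels and the surrounding tissue.

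Promoter sequence is shown for the 5 genes whose H3K4me3 levels or motif letters are described most closely, as the stretch of up to 250 bases that ends at the annotated start. The sequences are those of the RefSeq promoter table (GRCh38.p14), placed on GRCh37 by exact match. Of the 10 genes, 8 were matched in it, and FSCN1 and IL13RA2 were not. Capitals mark matches on either strand to the GC box (GGGCGG), the TATA box (TATAAA), an NF-kB half-site (GGGANTT), an AP-1 site (TGANTCA) or an ETS site (CCGGAAG).
MAN1A1, chr6:119670927-119671176, minus strand: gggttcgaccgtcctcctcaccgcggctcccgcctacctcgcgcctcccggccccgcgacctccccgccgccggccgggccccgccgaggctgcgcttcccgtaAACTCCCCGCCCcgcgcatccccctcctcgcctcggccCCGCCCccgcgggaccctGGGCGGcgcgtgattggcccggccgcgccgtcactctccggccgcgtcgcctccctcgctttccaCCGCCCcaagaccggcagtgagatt
ANGPTL4, chr19:8428789-8429038, plus strand: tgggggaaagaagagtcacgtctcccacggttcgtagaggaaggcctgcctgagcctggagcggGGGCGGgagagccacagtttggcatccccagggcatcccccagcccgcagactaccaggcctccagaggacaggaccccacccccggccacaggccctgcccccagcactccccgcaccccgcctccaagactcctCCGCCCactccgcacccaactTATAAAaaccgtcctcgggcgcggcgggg
PTGS2, chr1:186649556-186649805, minus strand: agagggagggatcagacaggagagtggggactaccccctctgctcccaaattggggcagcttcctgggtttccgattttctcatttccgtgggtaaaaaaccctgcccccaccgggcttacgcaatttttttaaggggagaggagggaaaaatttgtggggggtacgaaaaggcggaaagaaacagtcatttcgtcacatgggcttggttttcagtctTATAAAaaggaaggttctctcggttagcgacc
NEDD9 inner start, chr6:11232916-11233151, minus strand: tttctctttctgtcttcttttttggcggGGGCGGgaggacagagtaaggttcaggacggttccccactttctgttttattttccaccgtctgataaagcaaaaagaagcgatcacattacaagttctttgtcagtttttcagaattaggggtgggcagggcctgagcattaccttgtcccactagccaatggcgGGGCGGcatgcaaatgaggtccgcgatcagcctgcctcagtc
VCAM1, chr1:101185048-101185297, plus strand: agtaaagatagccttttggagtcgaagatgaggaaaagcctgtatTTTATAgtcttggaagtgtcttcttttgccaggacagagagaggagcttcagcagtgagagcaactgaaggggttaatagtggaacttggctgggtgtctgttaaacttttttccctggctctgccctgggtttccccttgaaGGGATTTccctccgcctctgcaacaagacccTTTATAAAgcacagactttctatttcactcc

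The promoters differed in base composition. MAN1A1 held 40 CpG dinucleotides, 4 GC box matches and 1 NF-kB half-site match that overlaps a GC box in AACTCCCCGCCC, and ANGPTL4 held 16 CpG dinucleotides, against a median of 11 over the 35116 promoters of the table. VCAM1 held 2 CpG dinucleotides, 1 NF-kB half-site match and 3 TATA box matches, of which a pair overlap in TTTATAAA. PTGS2 and ANGPTL4 each held 1 TATA box match close to the start. In windows of 250 bases, a GC box was found in 42.6% of all promoters, a TATA box in 10.7%, an ETS site in 8.52%, an AP-1 site in 6.57% and an NF-kB half-site in 14.1%. These are matches of letters and not sites of binding.

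A distal element is shown as well, because its H3K27ac differed between the lines: the middle 300 bases of the element upstream of NEDD9, read on the plus strand of GRCh37.
NEDD9 upstream element, chr6:11394025-11394324: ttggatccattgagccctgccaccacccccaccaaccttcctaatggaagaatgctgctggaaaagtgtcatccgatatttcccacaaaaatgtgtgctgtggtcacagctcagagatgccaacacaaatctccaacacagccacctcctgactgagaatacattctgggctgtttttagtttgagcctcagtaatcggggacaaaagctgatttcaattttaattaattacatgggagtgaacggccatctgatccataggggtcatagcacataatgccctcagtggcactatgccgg
The whole NEDD9 element of 3720 bp held 2 NF-kB half-site matches, 1 TATA box match and 0 matches to the other 3 motifs.

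Total counts in peaks ran from 3489607 to 9839629 in the H3K4me3 libraries and from 1994996 to 6450028 in the H3K27ac libraries. In H3K4me3, replicate 2 was deeper than replicate 1 in every line. Levels are given as CPM, the count of a peak scaled to the total count in peaks of its library, in the order replicate 1 and replicate 2. Differences are log2 fold changes of a DESeq2 Wald test with the standard error of the fit, and a peak was called when its Benjamini-Hochberg adjusted p over all peaks of the mark was under 0.05. The comparisons of LM2 and of BrM2 with Par share the same Par libraries. All 7 claudin-low or mesenchymal markers had a promoter H3K4me3 peak, and without a replicate block 0 of their 8 peaks were called in any of the 3 comparisons. With the block, 0 were called in LM2 against Par, 2 higher and 1 lower in BrM2 against Par, and 1 higher and 1 lower in BrM2 against LM2. Over all tested H3K4me3 peaks, 2.51%, 3.73% and 3.35% were called in these comparisons without the block, and 14.8%, 19% and 22.5% with it. All 7 luminal or epithelial markers also had a peak. Of their 11 peaks, 1 was called in each comparison: that of ESR1, the estrogen receptor, was higher in LM2 (log2 fold change 2.52 ± 0.42) and BrM2 (1.62 ± 0.42), and that of PGR was higher in BrM2 than in LM2. The median over the 11 peaks was -0.35 in LM2 and 0.40 in BrM2, beside 0.02 and -0.02 for all H3K4me3 peaks. With the block 2 were higher and 2 lower in LM2, and 3 higher and 0 lower in BrM2. In BrM2 against LM2 the block gave 4 higher and 1 lower. Of the markers of other cell types, GFAP and SFTPC had a peak within 2 kb, PTPRC and CDH5 had none, and PECAM1 was not matched to the annotation.

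FSCN1 was the 1 member whose promoter H3K4me3 was called without a replicate block, and it rose in both sub-populations. FSCN1 encodes fascin, which bundles actin filaments in filopodia and invadopodia. Its peak (chr7:5631016-5636686, over the first exon and 5′ UTR) had 21.8 and 31.3 CPM in Par, 92.3 and 94.2 for LM2, and 94.5 and 96.8 for BrM2. Both sub-populations lay above both Par libraries, with no overlap, and lay close to each other. On the log2 scale the rise was 1.86 ± 0.33 in LM2, or 3.64-fold (adjusted p = 7.2e-06), and 1.80 ± 0.33 in BrM2, or 3.49-fold (adjusted p = 1.03e-05). Between BrM2 and LM2 the log2 difference was -0.06, with a 95% interval from -0.69 to 0.57 and an adjusted p of 0.993.

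FSCN1 was 1 of 8 member promoters with an adjusted p in LM2 and 1 of 9 in BrM2, where 2.51% and 3.73% of all tested H3K4me3 peaks were called. Of the 9 tested between BrM2 and LM2, 0 were called by DESeq2, where 3.35% of all peaks were. By edgeR 0 were called, and 2 had an unadjusted DESeq2 p under 0.05. The shares of all peaks for edgeR and for the unadjusted p were not computed, so these counts show nothing particular to the members. Replicates of the same number moved together in this mark, and adding replicate number to the model as a block changed the calls. The blocked fit called 5 of 7 tested member promoters in LM2 against Par, of which FSCN1, MAN1A1, ANGPTL4 and PTGS2 were higher and NEDD9 was lower. In BrM2, of 8 tested, it called FSCN1 as higher and NEDD9 as lower. Between BrM2 and LM2, of 9 tested, it called MAN1A1, ANGPTL4 and PTGS2, all lower in BrM2. Over all tested peaks it called 14.8%, 19% and 22.5% in these comparisons.

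**Figure D1:**
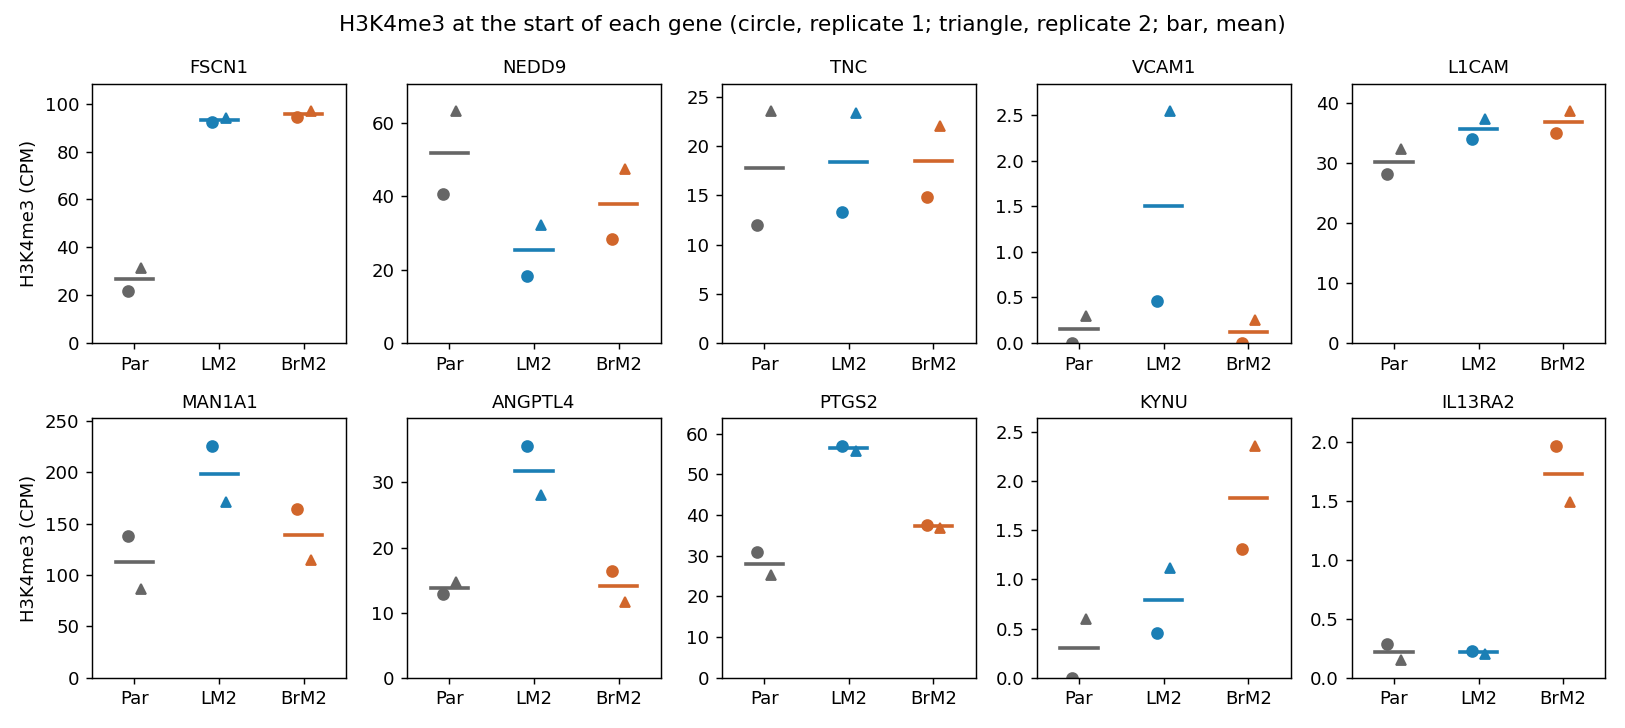
H3K4me3 in CPM at the start of each of the 10 genes, by line; circles are replicate 1, triangles replicate 2 and bars the mean, and each panel has its own axis from 0. FSCN1 lies between 92.3 and 96.8 CPM in LM2 and BrM2, against 21.8 and 31.3 in Par, and MAN1A1, ANGPTL4 and PTGS2 lie highest in LM2.

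NEDD9 is a scaffold protein of focal adhesions that works in integrin signaling and cell migration. Its H3K4me3 peak (chr6:11229316-11234081) covered an inner start, and no H3K4me3 peak lay within 2 kb of its outermost start at position 11382581. The peak had 40.7 and 63.1 CPM in Par, 18.4 and 32.2 for LM2, and 28.4 and 47.3 for BrM2. LM2 lay below Par in both libraries, while BrM2 overlapped both other lines. LM2 differed from Par by -1.01 ± 0.37 on the log2 scale, with an adjusted p of 0.164 and, with the replicate block, 1.63e-05. BrM2 differed by -0.52 ± 0.37 with an adjusted p of 0.772 and, with the block, 0.0428.

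MAN1A1, ANGPTL4 and PTGS2 had their highest H3K4me3 in LM2, although none of them was called without the replicate block. MAN1A1 encodes a Golgi mannosidase that trims N-linked glycans. Its peak (chr6:119669161-119672110) had 138 and 86.2 CPM in Par, 226 and 172 for LM2, and 164 and 114 for BrM2. The LM2 libraries lay above all others. Against Par the log2 difference of LM2 was 0.85 ± 0.42 (adjusted p = 0.537, with the block 6.36e-13) and that of BrM2 against LM2 was -0.61 ± 0.42 (adjusted p = 0.697, with the block 4.85e-07). With the median of the surrounding 5 Mb window removed, 0.18 in LM2, the difference of LM2 from Par was 0.66. That of BrM2 from LM2 was then -0.29. The part of the region in these differences was not tested further.

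ANGPTL4 encodes a secreted protein that inhibits lipoprotein lipase and loosens endothelial junctions. Its peak (chr19:8428566-8430036), over the promoter printed above, had 12.9 and 14.7 CPM in Par, 35.6 and 28.1 for LM2, and 16.4 and 11.7 for BrM2. LM2 stood apart from the other two lines, which overlapped. Its log2 fold change against Par was 1.26 ± 0.44 in LM2 (adjusted p = 0.115, with the block 0.00042), and -0.03 ± 0.44 in BrM2 (adjusted p = 0.997), and BrM2 differed from LM2 by -1.29 ± 0.43 (adjusted p = 0.0718, with the block 4.66e-05).

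PTGS2 encodes cyclooxygenase-2, the inducible enzyme of prostaglandin synthesis. Its peak (chr1:186648982-186650874) had 31.0 and 25.2 CPM in Par, 56.9 and 55.8 for LM2, and 37.5 and 36.8 for BrM2. No groups overlapped, with BrM2 between Par and LM2. LM2 exceeded Par by 1.03 ± 0.37 on the log2 scale (adjusted p = 0.144, with the block 3.47e-06) and BrM2 did by 0.34 ± 0.37 (adjusted p = 0.98), with -0.70 ± 0.37 for BrM2 against LM2 (adjusted p = 0.476, with the block 0.00219). The peak also covers the antisense non-coding gene PACERR, whose start it cannot be told apart from.

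The promoters of 2 adhesion and matrix genes gave small log2 fold changes. TNC encodes tenascin C, a matrix glycoprotein of metastatic niches. Its peak (chr9:117878480-117881319) had 12.04 and 23.5 CPM in Par, 13.3 and 23.4 for LM2, and 14.8 and 22.1 for BrM2. Replicates differed more than lines, and the log2 fold changes were 0.07 ± 0.43 in LM2 (95% interval -0.76 to 0.91) and -0.00 ± 0.43 in BrM2 (95% interval -0.84 to 0.83). L1CAM, a cell adhesion molecule by which tumor cells spread along capillaries, had 28.1 and 32.3 CPM in Par, 34.0 and 37.2 for LM2, and 34.9 and 38.5 for BrM2 at chrX:153150202-153152088. Both sub-populations lay above Par, by 0.27 ± 0.35 in LM2 and 0.22 ± 0.35 in BrM2 on the log2 scale, and neither was called.

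The other 3 promoters held few reads. VCAM1, the vascular cell adhesion molecule that binds integrins on leukocytes, had a peak of 332 bp (chr1:101185162-101185493) with raw counts of 0 and 2 in Par, 2 and 25 for LM2, and 0 and 2 for BrM2. LM2 replicate 2 alone was above 3 counts, and no adjusted p was given. KYNU, kynureninase of tryptophan breakdown, had counts of 0 and 4 in Par, 2 and 11 for LM2, and 6 and 19 for BrM2 in a peak 63 bp from a start (chr2:143635316-143635861). The BrM2 values were the highest in CPM, at 1.31 and 2.35, and the adjusted p for BrM2 against Par was 0.607. IL13RA2, a decoy receptor for interleukin 13, had a peak of 227 bp in an intron (chrX:114252274-114252500), 95 bp from a start, with 1 and 1 counts in Par, 1 and 2 for LM2, and 9 and 12 for BrM2. The BrM2 libraries, at 1.964 and 1.49 CPM, lay above all others, which were at or under 0.29, and the adjusted p was 0.507 against Par. None of the 3 was called by DESeq2 with or without the block. The share of all peaks called by edgeR with the block was not computed. With the block in edgeR, VCAM1 was called higher in LM2 than in Par (adjusted p = 0.00663) and lower in BrM2 than in LM2 (adjusted p = 0.00097), KYNU higher in BrM2 than in Par (adjusted p = 0.0184), and IL13RA2 higher in BrM2 than in Par (adjusted p = 0.0117) and LM2 (adjusted p = 0.00547).

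Per length, the H3K4me3 level in Par was highest at MAN1A1, with a mean of 38.1 CPM per kb, and then at L1CAM (16.0), PTGS2 (14.8), NEDD9 (10.9), ANGPTL4 (9.39), TNC (6.26) and FSCN1 (4.68). In LM2, MAN1A1 reached 67.3 CPM per kb, PTGS2 29.8, ANGPTL4 21.6 and FSCN1 16.4, while NEDD9 stood at 5.31. In BrM2 the FSCN1 level was 16.9 CPM per kb.

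At FSCN1, H3K27ac was not called in either sub-population, while H3K4me3 was called in both. The single H3K27ac peak of the gene (chr7:5628419-5638466, 10048 bp) had 83.0 and 83.5 CPM in Par, 97.1 and 85.6 for LM2, and 93.8 and 99.7 for BrM2. Both sub-populations lay above Par, but by log2 fold changes of only 0.07 ± 0.26 in LM2 (95% interval -0.43 to 0.57, adjusted p = 0.979) and 0.22 ± 0.26 in BrM2 (95% interval -0.29 to 0.73, adjusted p = 0.803). The upper bounds of these intervals lie under the lower bounds for H3K4me3, which were 1.21 and 1.15. The H3K27ac peak extends beyond the H3K4me3 peak (chr7:5631016-5636686) on both sides, so the marks were read over unlike lengths. The difference between the marks itself was not tested.

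At the starts of FSCN1, NEDD9, PTGS2, MAN1A1 and L1CAM the 2 marks had log2 fold changes of the same sign in both sub-populations. At ANGPTL4 they did so in LM2. Several of these values, as at L1CAM, were smaller than their standard error. The share of all gene starts with the same sign was not computed, so this shows nothing particular to the members. At the inner start of NEDD9, H3K27ac (chr6:11228024-11234026) had 48.6 and 41.0 CPM in Par, 26.8 and 31.1 for LM2, and 24.0 and 26.1 for BrM2, so that Par lay above both others. LM2 differed from Par by -0.70 ± 0.31 on the log2 scale (adjusted p = 0.268) and BrM2 by -0.84 ± 0.33 (adjusted p = 0.118, with the block 0.0443). At PTGS2 the H3K27ac peak over the start had 11.9 and 5.48 CPM in Par, 16.3 and 18.9 for LM2, and 12.2 and 8.02 for BrM2. LM2 was highest, by 0.95 ± 0.47 against Par (adjusted p = 0.357), and 0.43 after the median of its 5 Mb window, 0.51, was removed. The ANGPTL4 start had 40.8 and 46.7 CPM in Par, 70.4 and 55.3 for LM2, and 66.3 and 60.7 for BrM2. Here both sub-populations lay above Par, by 0.46 ± 0.29 in LM2 and 0.54 ± 0.29 in BrM2, and neither was called. MAN1A1, with 9.66 to 24.7 CPM, and L1CAM, with 8.89 to 13.95 CPM at its start, were not called either.

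**Figure D2:**
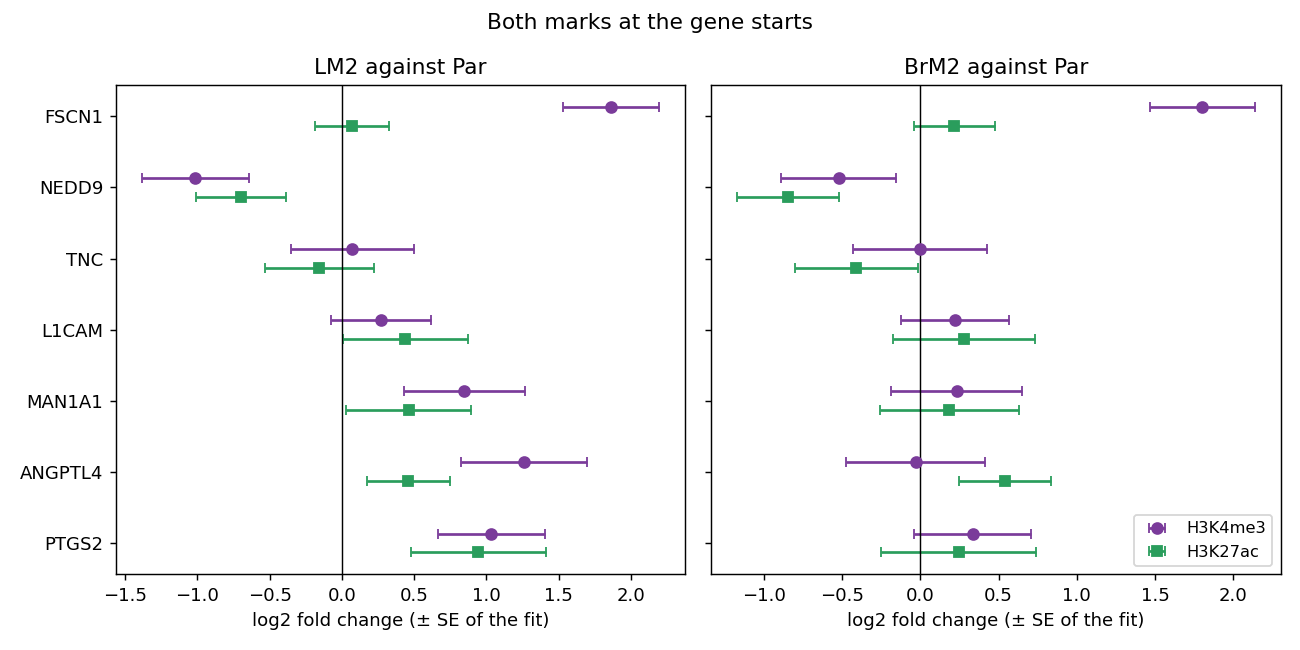
Log2 fold changes of H3K4me3 (circles) and H3K27ac (squares) at the starts of 7 genes, for LM2 and BrM2 against Par; bars are the standard error of the DESeq2 fit. FSCN1 has H3K4me3 values of 1.86 and 1.80 with H3K27ac values of 0.07 and 0.22. VCAM1, KYNU and IL13RA2 are left out for their low H3K4me3 counts.

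Of the 69 H3K27ac peaks, 53 had an adjusted p in LM2 against Par and 54 in BrM2 against Par. In LM2, 2 were called, 1 higher and 1 lower, where 3.89% of all tested H3K27ac peaks were called. In BrM2, 4 were called, 1 higher and 3 lower, where 5.29% were. Between BrM2 and LM2, 1 of 53 was called, lower in BrM2, where 2.87% were, and with the replicate block 3 were called of 45 tested, where 6.17% were. Leaving out any 1 library took these counts to 1 in LM2 and to 1 or 2 in BrM2 against Par, and to 0 between BrM2 and LM2. Where both shares are given, those of members called were close to those of all peaks. Without the block, the called peaks belonged to NEDD9 and VCAM1. With the block, 2 of 51 tested were called in LM2 against Par, and 6 of 51 in BrM2 against Par, 2 higher and 4 lower. The shares of all H3K27ac peaks called with the block in the comparisons with Par are not given. The block added 1 peak of KYNU in BrM2 against Par and 1 of TNC in BrM2 against LM2. The median log2 fold change over the members was -0.03 in LM2 and -0.28 in BrM2, beside -0.02 for all H3K27ac peaks in each.

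NEDD9 held most of these differences, and in both directions. The upstream element whose middle is printed above (chr6:11392315-11396034, 9734 bp upstream of the nearest start) had 68.2 and 51.9 CPM in Par, 17.4 and 17.6 for LM2, and 16.6 and 22.1 for BrM2. Both sub-populations lay far below Par and overlapped each other. H3K27ac fell there by 1.85 ± 0.33 on the log2 scale in LM2 (adjusted p = 6.77e-06) and by 1.66 ± 0.34 in BrM2 (adjusted p = 0.00015). Without Par replicate 1 or without BrM2 replicate 1, the fall in BrM2 was no longer called.

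At the other end of the gene the mark rose. A peak over exon and UTR sequence near the 3′ end (chr6:11194065-11199059) had 13.0 and 8.35 CPM in Par, 31.9 and 22.1 for LM2, and 51.7 and 41.1 for BrM2. No groups overlapped, and BrM2 was highest. The rise on the log2 scale was 1.27 ± 0.38 for LM2 (adjusted p = 0.0244) and 2.12 ± 0.38 for BrM2, or 4.36-fold (adjusted p = 4.07e-06). The call in LM2 was lost when any 1 of the 6 libraries was left out, while that in BrM2 was kept under all 14 alternatives. These 14 alternatives vary the fit and not the assignment of peaks to genes. With peaks assigned from their midpoint to the nearest gene-level start, this peak left the set. Under that rule 0 member peaks were called higher in LM2 or in BrM2 against Par. At this peak, BrM2 against LM2 gave 0.85 ± 0.36 with an adjusted p of 0.221. The non-coding gene ENSG00000247925 overlaps this peak and the inner start.

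Another NEDD9 peak, in an intron (chr6:11316244-11320067), had 36.7 and 27.1 CPM in Par, 18.6 and 18.4 for LM2, and 15.0 and 13.5 for BrM2. Par lay above both sub-populations, and the fall in BrM2 was 1.15 ± 0.37 on the log2 scale (adjusted p = 0.041). That call was lost when any 1 of the 6 libraries was left out, and when chromosome medians were removed. The widest peak (chr6:11423304-11435036, 11733 bp), upstream of the gene, had 122 and 113 CPM in Par, 96.4 and 80.8 for LM2, and 138 and 122 for BrM2. It lay lowest in LM2, and BrM2 exceeded LM2 by 0.62 ± 0.26 (adjusted p = 0.216, with the block 0.0301).

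Over all 29 NEDD9 peaks, 26 had a log2 fold change under 0 in LM2 and 23 in BrM2. Their medians were -0.88 and -0.83, beside -0.02 for all H3K27ac peaks. In 19 of them both LM2 libraries lay below both Par libraries, which held for 18.3% of all H3K27ac peaks, and in 16 both BrM2 libraries did, which held for 25.6%. The median of all peaks in the same 5 Mb window was -0.14 in LM2 and 0.02 in BrM2. The summed level of the 29 peaks, over 60571 bp, was 525 and 420 CPM in Par, 349 and 318 for LM2, and 399 and 374 for BrM2. The peaks share libraries and lie side by side, so they are not separate replicates of a change.

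**Figure D3:**
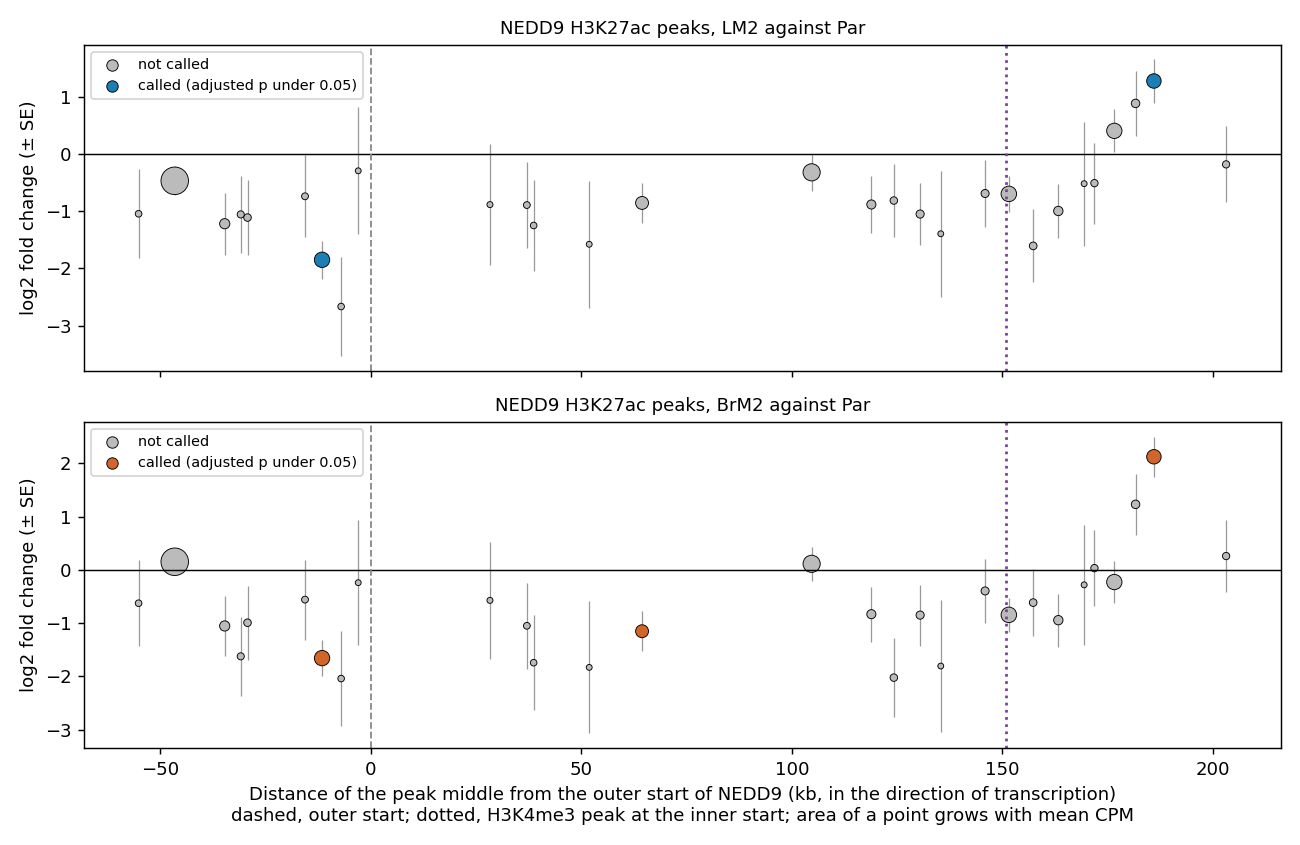
Log2 fold change (with standard error) of each of the 29 NEDD9 H3K27ac peaks in LM2 and BrM2 against Par, by the distance of the peak middle from the outer start in kb, positive in the direction of transcription. The upstream element lies at -1.85 and -1.66 and the peak near the 3′ end at 1.27 and 2.12; coloured points are called peaks and the area of a point grows with its mean CPM.

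At VCAM1, 1 of the 8 H3K27ac peaks was called by DESeq2, as lower in BrM2 than in Par and than in LM2. This element, 4031 bp upstream of the VCAM1 start (chr1:101177932-101181267), had 26.2 and 27.7 CPM in Par, 30.4 and 29.3 for LM2, and 12.2 and 11.03 for BrM2. BrM2 lay below all other libraries. Against Par, LM2 differed by 0.08 ± 0.33 (adjusted p = 0.982) and BrM2 by -1.20 ± 0.37 (adjusted p = 0.0279), with -1.28 ± 0.37 for BrM2 against LM2 (adjusted p = 0.0234). Both calls were lost when any 1 library was left out. The H3K27ac peak over the VCAM1 start (chr1:101184989-101187049) had 3.42 and 3.92 CPM in Par, 7.29 and 6.38 for LM2, and 3.06 and 2.01 for BrM2. LM2 was highest there too, and no comparison was called. Over the 8 VCAM1 peaks the median log2 fold change of BrM2 was -0.27 against Par, with 2 above 0. Against LM2 it was -0.18, with 3 above 0. Both BrM2 libraries lay below both Par libraries in 2 peaks, beside 25.6% of all H3K27ac peaks. They lay below both LM2 libraries in 4, beside 27.2%. The summed level was 62.7 and 59.0 CPM in Par, 61.4 and 65.7 for LM2, and 44.6 and 42.1 for BrM2.

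**Figure D4:**
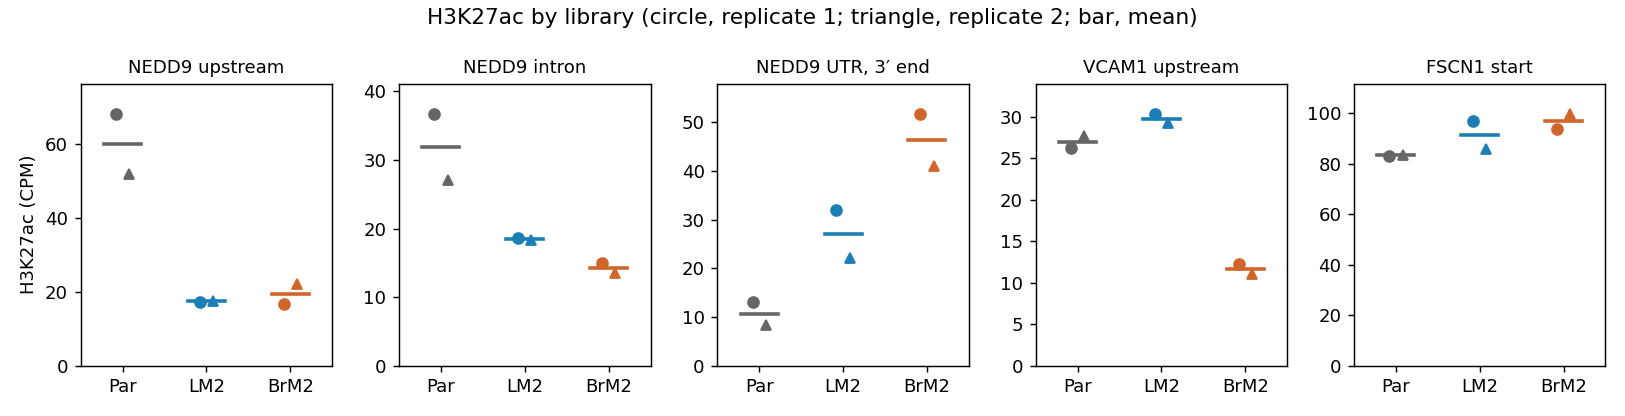
H3K27ac in CPM by line at the NEDD9 upstream element, the NEDD9 intron peak, the peak near the NEDD9 3′ end, the VCAM1 upstream element and the FSCN1 start; circles are replicate 1, triangles replicate 2 and bars the mean, with axes from 0. The VCAM1 element lies at 12.2 and 11.03 CPM in BrM2 against 26.2 to 30.4 in Par and LM2.

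Besides a peak over its start (chr9:117876641-117881280), TNC had H3K27ac in distal peaks upstream of the gene, within the non-coding gene DELEC1. The strongest (chr9:117925740-117934524) had 64.3 and 36.0 CPM in Par, 64.2 and 58.0 for LM2, and 29.3 and 29.1 for BrM2. BrM2 lay below all other libraries, by -0.78 ± 0.34 against Par (adjusted p = 0.203) and -0.998 ± 0.34 against LM2 (adjusted p = 0.0847, with the block 0.0109). In 13 of 13 TNC peaks both BrM2 libraries lay below both LM2 libraries, which held for 27.2% of all H3K27ac peaks, and the summed level over 31891 bp was 167 and 124 CPM in Par, 164 and 167 for LM2, and 88.4 and 86.7 for BrM2. The median of all peaks in the same 5 Mb window moved the same way, at 0.21 in LM2 and -0.29 in BrM2, and with it removed the strongest peak differed between BrM2 and LM2 by -0.50. The part of this regional difference in the TNC values was not tested further.

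KYNU carried H3K27ac over its start (chr2:143634903-143637277) and just upstream of the gene. The peak at chr2:143623291-143634092, which ends 1134 bp before the start, had 64.3 and 49.1 CPM in Par, 98.8 and 80.6 for LM2, and 87.4 and 93.7 for BrM2. Both sub-populations lay above Par, by 0.60 ± 0.28 in LM2 (adjusted p = 0.303) and 0.68 ± 0.28 in BrM2 (adjusted p = 0.169, with the block 0.033). The window median was 0.30 in LM2 and 0.37 in BrM2, and the differences left after its removal were 0.30 and 0.31.

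Other genes of lung or brain metastasis were read at their promoters, as were the families and partners of the 10 genes. Of 22 other metastasis genes, 20 had an H3K4me3 peak, with 22 peaks in all. Among these, 4 were called higher (CSF3, MMP2, SPARC and ROBO1) and 2 lower (SCNN1A and TNFSF10) in LM2, where 2.51% of all tested peaks were called. In BrM2, 3 were higher (ST6GALNAC5, SPARC and ROBO1) and 3 lower (SCNN1A, TNFSF10 and EREG), where 3.73% were called. The EREG call (-1.16 ± 0.37, adjusted p = 0.0468) was lost when the 5 Mb window median was removed (-0.69, adjusted p = 0.628). With the replicate block, 6 were higher and 2 lower in LM2 (14.8% of all tested peaks), and 4 higher and 4 lower in BrM2 (19%). Between BrM2 and LM2, 1 was higher and 4 lower in BrM2, both without the block (3.35%) and with it (22.5%). The medians were 0.19 in LM2 and 0.03 in BrM2, beside 0.02 and -0.02 for all H3K4me3 peaks. CSF3, which encodes the growth factor of granulocytes, had 2.29 and 5.81 CPM in Par, 63.1 and 108 for LM2, and 1.09 and 2.97 for BrM2, a log2 fold change of 4.38 ± 0.46 in LM2 (adjusted p = 3.03e-17) and -1.04 ± 0.54 in BrM2 (adjusted p = 0.497). BrM2 differed from LM2 by -5.41 ± 0.49 (adjusted p = 5.28e-24). SPARC, a matrix glycoprotein, had 0.287 and 1.49 CPM in Par, 32.8 and 56.2 for LM2, and 6.55 and 10.0 for BrM2. SCNN1A, a subunit of the epithelial sodium channel, fell by 3.19 ± 0.51 in LM2 and by 3.88 ± 0.53 in BrM2 on the log2 scale. The list holds genes that were known from these data to change, and its counts are no independent evidence.

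Of 37 families and partners, 28 genes had a peak, with 33 peaks. In LM2, 1 was called higher and 0 lower, beside 2.51% of all tested peaks, and in BrM2 2 were higher and 0 lower, beside 3.73%. With the replicate block, 8 were higher and 1 lower in LM2 (14.8% of all tested peaks), and 4 higher and 3 lower in BrM2 (19%). In BrM2 against LM2 the block gave 1 higher and 9 lower (22.5%). Without the block, 0 were called there by DESeq2 (3.35%) or edgeR, and 2 had an unadjusted p under 0.05. The shares of all peaks for edgeR and for the unadjusted p were not computed. LPL, the lipase that ANGPTL4 inhibits, was the 1 called in LM2, with 3.44 and 6.11 CPM in Par, 14.9 and 24.9 for LM2, and 8.95 and 12.8 for BrM2, a log2 fold change of 2.06 ± 0.48 (adjusted p = 0.00169). CHL1, a close relative of L1CAM, had 0.860 and 1.34 CPM in Par and 10.48 and 6.20 in BrM2 (2.87 ± 0.76, adjusted p = 0.00718). EFS, a scaffold of the NEDD9 family, had 0.573 and 1.49 CPM in Par and 4.80 and 9.67 in BrM2 (2.68 ± 0.81, adjusted p = 0.03, and 0.0793 with edgeR).

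The promoters whose H3K4me3 pattern was most like that of FSCN1 were those of PHGDH, the first enzyme of serine synthesis, and PCSK5, a proprotein convertase. Likeness was Pearson's r of log2(CPM + 1) over the 6 libraries, among 5284 promoters, and was 0.996 for each. PHGDH had 4.87 and 6.40 CPM in Par, 22.5 and 26.3 for LM2, and 25.3 and 26.0 for BrM2. PCSK5 had 31.2 and 36.5 CPM in Par, 97.5 and 94.3 for LM2, and 99.96 and 102 for BrM2. A value of r over 0.95 was reached by 84 promoters, so many promoters shared the pattern of FSCN1.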

How the data were processed

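ChIP-seq of H3K4me3 and H3K27ac in Par, LM2 and BrM2 cells gave 12 libraries, and 3 inputs were not used here. Fixation lasted 10 min per the labels. The authors trimmed reads with Trimmomatic 0.32, aligned them to hg19 with Bowtie2 2.3.4.3, marked duplicates with Picard 2.18.21, called broad consensus peaks with MACS2 2.1.2 on the merged libraries of a mark, and counted reads extended by 150 bp with featureCounts. The deposited tables hold raw counts per consensus peak. Because peaks were called on merged libraries, a region marked in 1 line can be missed, and duplicates and mapping could not be varied.

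Peaks were assigned with GENCODE release 44 on GRCh37. Counts of the 6 libraries of a mark entered 1 DESeq2 (version 1.42.0) Wald fit with line as the only term (3 residual degrees of freedom), with median-of-ratios size factors and no shrinkage, and p-values were adjusted over all peaks by Benjamini-Hochberg. Independent filtering left some peaks without an adjusted p, and these were not counted as called. Intervals are 95% intervals of the fit. The code was tested on simulated counts.

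Alternatives were edgeR (version 4.0.16) with TMM, total-count size factors, at least 10 counts in 2 libraries, no independent filtering, a replicate block, the block in edgeR, chromosome or 5 Mb window medians removed, each library left out, and other assignment rules. Replicate numbers come from the titles. Deviations of same-numbered libraries correlated between lines with r of 0.843, 0.788 and 0.825 for H3K4me3 and 0.407, 0.607 and 0.48 for H3K27ac, all over the limit of 0.1, so the numbers were taken to pair the libraries, and values of the fit with the replicate block (2 residual degrees of freedom) are given beside those of the fit without it where a call changed, although no label names a batch or day shared by them. In every line the deeper library was replicate 2 for H3K4me3 and replicate 1 for H3K27ac. The part of depth in these correlations was not tested. Replicates of a line differed by more than counting noise (chi-square per degree of freedom 2.12 to 12.3). P-values measure the spread between these 2 replicates per line.

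All members are named. For H3K27ac, the peak at or nearest to the starts, the peak with the highest count and each called peak were selected. Values of the peaks over the TNC and KYNU starts and of the L1CAM peak at chrX:153146223-153149161 are not printed. For other lists the 3 peaks with the smallest p have values. ESR1 and PGR were named after their values were seen. The members, lists and tests were chosen with earlier results of these data known. The sequence of 1 distal element is not reported here.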

Additional observations from a re-analysis of the deposited data

Results flagged for a closer look

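H3K27ac at the element upstream of VCAM1 (chr1:101177932-101181267) differed between the 2 sub-populations under the same comparison with Par. The log2 fold change against Par was 0.08 in LM2 and -1.20 in BrM2, and the direct test of BrM2 against LM2 gave -1.28 ± 0.37 (DESeq2 adjusted p = 0.0234, and 0.00641 with the replicate block). The CPM were 30.4 and 29.3 in LM2 and 12.2 and 11.03 in BrM2. With the median of the 5 Mb window removed the difference was -1.23 with an adjusted p of 0.052. The shallowest H3K27ac library, with 1994996 counts, was BrM2 replicate 2.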

How the results depend on the processing

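For member peaks called by DESeq2 with or without the replicate block, no called log2 fold change turned sign under the 14 alternatives. Comparisons that were not called were not checked for a change of sign. FSCN1 H3K4me3 was called in LM2 and in BrM2 under all 14 alternatives, with log2 fold changes of 1.69 to 2.103 and 1.69 to 2.12. The other promoter counts rested on the replicate block: H3K4me3 member peaks called in LM2 against Par went from 1 to 5 with the replicate block and 6 with the edgeR replicate block, in BrM2 against Par from 1 to 2 and 5, and in BrM2 against LM2 from 0 to 3 and 6. For H3K27ac in LM2 against Par, 2 calls became 5 with edgeR TMM, 14 with the edgeR replicate block and 1 when peaks were assigned from their midpoint to the nearest gene-level start. In BrM2 against Par, 4 became 6 with edgeR TMM, 6 with the replicate block and 17 with the edgeR replicate block. Assigning peaks from their midpoint to the nearest gene-level start left 3 there, all lower. In BrM2 against LM2, 1 became 3 with edgeR TMM, 3 with the replicate block, 11 with the edgeR replicate block and 0 with the 5 Mb window medians removed. The shares of all peaks called by edgeR were not computed, so its counts show nothing particular to the members. With the replicate block in DESeq2, 14.8%, 19% and 22.5% of all tested H3K4me3 peaks were called in the 3 comparisons. Leaving out each library in turn gave 1 call each time in LM2 against Par, 1 to 2 in BrM2 against Par and 0 each time in BrM2 against LM2, where fewer samples entered the fit. A line left with 1 library is assumed to vary like the others. The causes of the other changes were not tested. The low counts at the VCAM1, KYNU and IL13RA2 promoters limit the precision there.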
